A study of Mus musculus with 50 samples.

Results

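Trank1 and Pld5 are 2 of the 55385 genes listed in the deposited count tables. They were chosen by a measured contrast: in motor neurons cultured for 28 days, their RNA was lower when the cultures were grown with tetrodotoxin (TTX). Among the 52 genes that were lower with TTX and passed an unadjusted p under 0.001 with at least a 2-fold change, Pld5 was 13th and Trank1 14th by size of the change. Because that contrast selected them, their values with and without TTX are described here and not tested. Tests of both genes are given only for comparisons between groups that the contrast did not use. The fits behind the tests in culture also held libraries of the contrast, which entered the filter and the estimate of spread. Both genes passed the filter on low counts, a CPM (read count scaled to library size) of 5 or more in all replicates of some group, in the in vivo and the in vitro libraries. With TTX, Pld5 was at 3.33, 3.20 and 5.96 CPM, so that 2 of the 3 TTX libraries lay under that minimum and the gene passed through other groups.

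Trank1 (tetratricopeptide repeat and ankyrin repeat containing 1) encodes a very large protein of poorly known function, and its human orthologue lies in a locus associated with bipolar disorder. Pld5 encodes a member of the phospholipase D family that is thought to lack the catalytic activity of its relatives. TTX blocks voltage-gated sodium channels and so prevents action potentials. Firing normally lets calcium into a neuron, and this induces early genes such as Fos, whose protein pairs with those of the Jun family to form the AP-1 transcription factor.

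RNA was sequenced in 28 libraries and open chromatin was profiled by ATAC-seq in 22 libraries, with 2 ATAC libraries per group. In vivo RNA came from mouse spinal motor neurons at embryonic ages E10.5 (3 libraries) and E13.5 (2), postnatal days 4 (P4, 3), 13 (P13, 2), 21 (P21, 3) and 56 (P56, 3), and at 2 years (2). The E10.5 RNA was from whole cells of HB9-GFP embryos sorted for GFP, and that of all later ages from nuclei of Chat-Cre; SUN1-GFP mice, in which Cre expressed from the Chat gene tags the nuclear envelope of cholinergic cells. Per the paper, these nuclei for RNA were purified on beads from brachial and lumbar cord. The E10.5 cells and the nuclei for ATAC-seq were sorted, and came from thoracic cord as well. In vitro, motor neurons were differentiated in embryoid bodies from 1 embryonic stem cell line of the same Chat-Cre and SUN1-GFP genotype. They were then plated on mouse cortical glia and kept there for 7 or 28 days (DIV7 and DIV28), while at DIV0 they had spent no time on glia. DIV0, DIV7 and DIV28 had 2, 2 and 3 RNA libraries, and 3 further RNA libraries came from cultures with 1 µM TTX throughout the 28 days. The paper released nuclei from embryoid bodies and from cultures on glia by separate steps. The animals of a replicate were pooled, and the labels do not say whether the culture replicates were separate differentiations, so p-values measure the spread between these libraries, which for the cultures may be technical. The tissue and the culture differ in age, in the neighbouring cells and in how the motor neurons arose.

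Library totals ran from 2704682 to 21823500 expected counts. One library titled as DIV0 replicate 3 was taken as DIV28 replicate 3. Its log2 CPM over 15561 genes correlated at 0.744 and 0.747 with the DIV0 libraries, at 0.854 and 0.862 with DIV7, at 0.941 and 0.940 with the other DIV28 libraries, and at 0.903 to 0.961 with the TTX libraries. The title goes against this placing, so the values that summarise the DIV28 group are also given without it, and values given per library can be read without replicate 3.

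In the GENCODE annotation of GRCm38 (mm10), Trank1 (ENSMUSG00000062296.8) lies at chr9:111311739-111395775 on the plus strand and has 7 transcripts. Pld5 (ENSMUSG00000055214.15) lies at chr1:175962306-176275312 on the minus strand and has 6 transcripts, which start in 2 places, one at the far end of the gene and one near position 176213942, where RefSeq places the promoter. The sequences around these starts are shown first, since the chromatin data described further on turn on them. Each runs from 250 bases before the start to 30 bases after it, 5′ to 3′ on the strand of the gene. They were searched on both strands for the AP-1 motif (TGANTCA, whose letters are their own reverse complement), the cAMP response element (CRE, TGACGTCA) and the core of the MEF2 motif (TAAAAATA), and matches would stand in capitals.
Trank1 start, chr9:111311489-111311768, plus strand, RefSeq: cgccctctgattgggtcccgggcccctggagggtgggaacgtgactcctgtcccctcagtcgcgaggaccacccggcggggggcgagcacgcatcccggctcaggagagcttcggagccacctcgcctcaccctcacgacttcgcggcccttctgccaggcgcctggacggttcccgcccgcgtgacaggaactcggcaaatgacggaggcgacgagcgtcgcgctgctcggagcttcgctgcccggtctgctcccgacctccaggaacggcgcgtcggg
Pld5 inner start, chr1:176213913-176214192, minus strand, RefSeq: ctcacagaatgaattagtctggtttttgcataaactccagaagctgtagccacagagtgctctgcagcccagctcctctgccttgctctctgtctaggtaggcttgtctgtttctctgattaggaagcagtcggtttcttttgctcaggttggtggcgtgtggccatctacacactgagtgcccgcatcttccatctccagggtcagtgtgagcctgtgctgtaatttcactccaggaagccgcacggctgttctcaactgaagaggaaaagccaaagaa
Pld5 far start, chr1:176275283-176275562, minus strand, GENCODE: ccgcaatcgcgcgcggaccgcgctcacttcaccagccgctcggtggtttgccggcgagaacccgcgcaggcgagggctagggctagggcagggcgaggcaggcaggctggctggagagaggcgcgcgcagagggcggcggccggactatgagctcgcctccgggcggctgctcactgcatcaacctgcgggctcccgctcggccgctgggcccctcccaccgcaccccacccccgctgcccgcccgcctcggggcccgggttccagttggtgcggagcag

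None of these 3 windows holds any of the motifs, so no base is in capitals. Among 32851 RefSeq promoters of the same length, 7.46% hold the AP-1 letters, 1.74% the CRE and 2.6% the MEF2 core. The Trank1 start is 71.4% G and C and the far Pld5 start 75.7%, against 50.7% at the inner Pld5 start.

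Without TTX, both genes were well detected at DIV28. Expected counts were put on 1 scale over the 28 libraries by the median-of-ratios method and are called normalised read counts. Trank1 was at 1324, 1803 and 1518 normalised counts in DIV28 replicates 1 to 3, and at 150.7, 244 and 215 in the TTX replicates. Pld5 was at 168, 193 and 263 normalised counts at DIV28, and at 18.04, 21.2 and 35.3 with TTX. For both genes the 3 TTX libraries lay below the 3 DIV28 libraries with no overlap, but neither gene was at 0 with TTX: Trank1 had 117, 449 and 170 expected counts there and Pld5 14, 39 and 28. RNA of both genes was therefore lower with TTX rather than absent.

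Trank1 averaged 1549 ± 241 normalised counts at DIV28 and 203 ± 47.6 with TTX (SD, n = 3 each), and the fitted log2 change was -2.95 with a standard error (SE) of 0.28, a level 7.71-fold lower. Pld5 averaged 208 ± 49.4 and 24.8 ± 9.22 (SD, n = 3 each), with a log2 change of -3.10 (SE 0.34), 8.56-fold lower. Taken by replicate number, the DIV28 library was above its TTX partner 8.79-, 7.40- and 7.08-fold for Trank1 and 9.31-, 9.12- and 7.45-fold for Pld5. In each of the 3 pairs the decrease was larger for Pld5 than for Trank1, by little in pairs 1 and 3. Without the library titled DIV0 the log2 changes were -2.96 for Trank1 and -2.90 for Pld5, and with the pairs as a block -2.95 and -3.12.

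The same held per transcript length. TPM divides the counts of a gene by its transcript length and scales the results to the same sum over all genes in each library. Trank1 was at 8.11, 12.3 and 7.1 TPM at DIV28 and at 0.76, 2.48 and 1.12 with TTX. Pld5 was at 3.82, 4.10 and 3.74 TPM at DIV28 and at 0.27, 0.58 and 0.52 with TTX. The pairs differed 10.7-, 4.96- and 6.34-fold for Trank1 and 14.1-, 7.07- and 7.19-fold for Pld5 on this scale, so the pairs were less alike than in normalised counts, and again did not overlap. Of the 12890 genes tested over the 10 in vitro libraries, 0.403% (52 genes) were called lower with TTX and 0.683% (88 genes) in either direction, and 172 genes in either direction with the pairs as a block. These shares are the background from which the members were selected, and nothing is read from the members' place in it. Just by count, 887 of 15104 genes with a mean of at least 10 normalised counts had all 3 TTX libraries below all 3 DIV28 libraries, and 1366 of 15037 without the library titled DIV0. Without it, 78 genes were called in either direction.

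**Figure D1:**
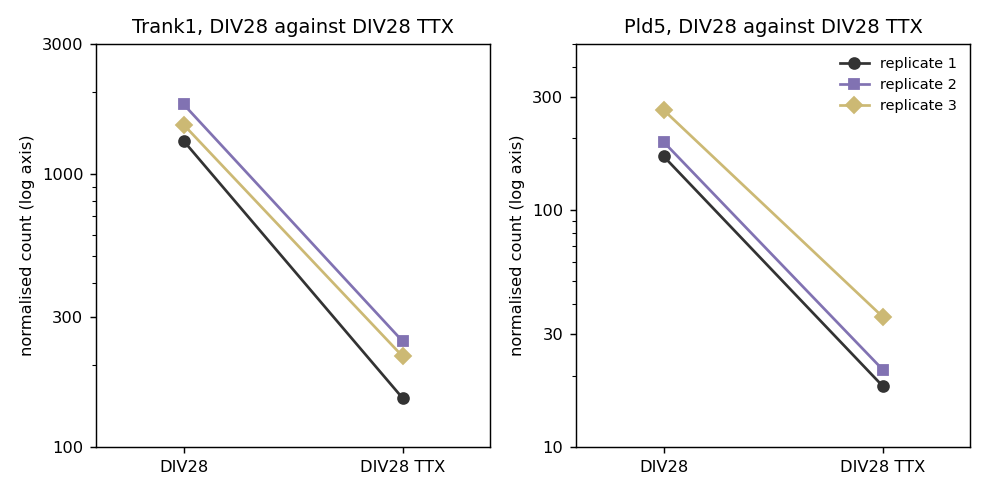
Normalised read counts of Trank1 and Pld5 (log axis) in the DIV28 and DIV28 TTX libraries, with a line joining libraries of the same replicate number and 1 panel per gene. All 3 lines fall in both panels, from 1324 to 1803 down to 150.7 to 244 for Trank1 and from 168 to 263 down to 18.04 to 35.3 for Pld5.

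The TTX libraries also differed in genes that respond to firing. A list of 10 early genes induced by activity had summed levels of 699 to 762 normalised counts at DIV28 and 237 to 458 with TTX. All 10 had a lower mean with TTX and 5 did not overlap, Fos being at 27.5 ± 5.10 against 5.12 ± 5.15 and Npas4, a transcription factor induced by calcium entry, at 61.2 ± 31.9 against 18.3 ± 6.83 (SD, n = 3 each). The DIV28 sums were 754 to 762 without the library titled DIV0, where Fos averaged 25.2 and Npas4 42.9 and 7 of the 10 genes did not overlap. Among all genes with a mean of at least 10, 887 of 15104 lay wholly below with TTX, and 1366 of 15037 without that library. Of 7 motor neuron markers, 5 had a lower mean with TTX and 2 did not overlap, with or without that library. Their sum was 5360 to 9274 at DIV28 and 5566 to 9625 with TTX, and overlapped. Most of it was Prph, which averaged 5809 and 6966, so the sum says little of the other markers. Chat, the enzyme that makes acetylcholine and the gene whose Cre marks the cells, was at 419.5 ± 97.5 and 176 ± 83.04 normalised counts. Slc5a7 was at 694 ± 17.4 and 489 ± 105, and Slc18a3 at 441 ± 124 and 278 ± 188 (SD, n = 3 each). The DIV28 sum was 8243 to 9274 without the library titled DIV0, and Chat averaged 451. The means of Prph, Slc5a7 and Slc18a3 are given only with that library. The part that these changes have in the lower Trank1 and Pld5 was not tested. In bulk libraries such as these, fewer cells expressing a gene and less RNA of it per cell cannot be told apart.

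Markers of other cells the cultures could hold overlapped in summed level between the conditions for all 5 lists. The 8 astrocyte markers summed to 397 to 861 normalised counts at DIV28 and 292 to 827 with TTX, the 5 oligodendrocyte markers to 32.0 to 48.9 and 15.5 to 50.5, and the 6 microglia markers to 16.8 to 40.1 and 13.03 to 25.8. The 4 fibroblast markers ranged from 0.73 to 292 and from 3.79 to 999.97, the 4 endothelial markers from 112 to 228 and from 42.9 to 128, and the oligodendrocyte genes Mog, Mag and Mobp were at 0 in all 6 libraries. Without the library titled DIV0 the DIV28 sums were 397 to 459.7 (astrocyte), 32.0 to 34.8 (oligodendrocyte), 24.3 to 40.1 (microglia), 191 to 292 (fibroblast) and 144 to 228 (endothelial), and the endothelial sums then lay above those with TTX with no overlap. With it the endothelial sums overlapped only narrowly, and the fibroblast sums varied most between the TTX libraries. Their part in the results on both genes was not tested.

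Few of the genes around Trank1 and Pld5 were expressed enough to be tested with TTX. Of 31 annotated genes with a start within 500 kb of that of Trank1, 5 passed the filter in vitro, 0 of them were called, and their median log2 change was -0.0011, against 0.012 over all 12890 genes. The nearest tested on one side was Epm2aip1, with a log2 change of -0.35 (SE 0.21). On the other side the nearest tested was Stac, with 0.39 (SE 0.27). Near Pld5, 2 of 18 genes were tested, the little known loci Gm38104 and 3110062G12Rik, with log2 changes of 0.51 (SE 0.65) and 0.40 (SE 0.68). Of these neighbours, 0 were called by edgeR, by edgeR with the pairs as a block or by DESeq2, and the numbers with an unadjusted p under 0.05 were 0, 1 and 0. Beside 0.683% of all genes called, 0 of 7 is the usual count and is no result about the neighbours. The large standard errors near Pld5 leave a wide range of changes possible.

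Of the other members of the phospholipase D family, Pld1, Pld2, Pld3, Pld4 and Pld6, the filter in vitro was passed by Pld1, which releases phosphatidic acid from phosphatidylcholine, and Pld3, an exonuclease of endolysosomes. Their log2 changes with TTX were 1.45 (SE 0.52, edgeR adjusted p = 0.44) and 0.25 (SE 0.44, adjusted p = 0.98). Both values are above 0, opposite in sign to that of Pld5, and 0 of 2 were called by edgeR, by edgeR with the pairs as a block or by DESeq2, each of which gave 1 unadjusted p under 0.05. Beside 0.683% of all genes called, this count says nothing particular about the family.

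In culture both genes started low and ended high. Trank1 was at 139.8 and 174 normalised counts at DIV0 and at 602 and 347 at DIV7, from where it went to the 1324 to 1803 of DIV28. Pld5 was at 19.6 and 29.05 at DIV0, at 73.2 and 95.7 at DIV7 and at 168 to 263 at DIV28. In normalised counts each gene was thus higher in all libraries of a later day than in all libraries of an earlier one. How many of all genes had this order was not counted, so it is only a description. The DIV28 libraries also belong to the contrast that chose both genes. In TPM the DIV7 and DIV28 libraries overlapped for both genes.

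From DIV0 to DIV7 the rise of Trank1 passed the call (log2 change 1.60, SE 0.34, edgeR adjusted p = 0.0055), 3.03-fold, where 8.36% of 12890 genes were called higher. The call was lost without DIV0 replicate 1 (1.47, adjusted p = 0.068), without DIV0 replicate 2 (1.77, adjusted p = 0.036) and without DIV7 replicate 1 (1.11, adjusted p = 0.069), in each case by an unadjusted edgeR p above the limit. Pld5 had a log2 change of 1.81 (SE 0.43, edgeR adjusted p = 0.010), 3.51-fold, and missed the limit of 0.001 on the unadjusted p, while it passed the call with no filter (1.84), with DESeq2 (1.79), with the replicate block (1.81) and under a limit on the adjusted p. Trank1 and Pld5 are thus not shown to differ at this step. The DIV0 counts of Pld5 were 15 and 19, so this change rests on few reads. This step also adds the glia and may change how nuclei were released, which cannot be told apart from days in culture. Fibroblast sums were 1.31 to 7.64 normalised counts at DIV0 and 111 to 1405 at DIV7, and oligodendrocyte sums 290 to 300 and 28.1 to 43.1. Their part in this step was not tested.

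From DIV7 to DIV28, a step that shares the DIV28 libraries with the TTX contrast and is only described, the log2 change was 1.73 (SE 0.31) for Trank1 and 1.32 (SE 0.36) for Pld5, beside 3.62% of genes called higher. Without the library titled DIV0 these were 1.75 and 1.11. In TPM the same step was much smaller: mean Trank1 went from 7.61 to 9.17 TPM, and mean Pld5 from 3.91 to 3.89 TPM, a log2 ratio of 0.27 and of -0.0068. The DIV28 means were 10.2 and 3.96 TPM without the library titled DIV0. Whether both genes rose after DIV7 therefore depends on the scale, while the lower level with TTX was seen on both. The mean transcript length of Pld5 was 2950 to 3375 bases at DIV7 and 2834 to 3158 at DIV28. That of Trank1 was 8534 to 8602 and 9209 to 10017. TPM also depends on the sum over all genes of a library, and the part of each in this difference was not tested.

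With TTX for 28 days, the levels of both genes were near those of DIV0 in normalised counts. The ratio of the mean with TTX to the mean at DIV0 was 1.29 for Trank1 and 1.02 for Pld5 in normalised counts, and 1.39 and 0.708 in TPM. In normalised counts the libraries of these groups overlapped for both genes. In TPM they overlapped for Trank1, while the 3 TTX libraries of Pld5 (0.27, 0.58 and 0.52) lay below both DIV0 libraries (0.67 and 0.62). The mean at DIV7 was 2.34-fold that with TTX for Trank1 and 3.40-fold for Pld5 in normalised counts, and 5.23- and 8.55-fold in TPM.

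In the spinal cord both genes rose from traces in the embryo to their highest levels after birth. At E10.5 Trank1 was at 5.34, 1.38 and 5.34 normalised counts (7, 2 and 7 expected counts), and Pld5 at 6.11, 5.53 and 8.39 (8, 8 and 11). At E13.5 Trank1 was at 44.3 and 30.9 and Pld5 at 109 and 46.8. In normalised counts, which are not divided by length, both genes were higher in each E13.5 library than in each E10.5 library. How many of all genes were so was not counted.

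From E10.5 to E13.5 the log2 change was 3.03 for Trank1 (SE 0.51, edgeR adjusted p = 4.5e-05) and 3.32 for Pld5 (SE 0.34, adjusted p = 1.4e-07). Both were called, where 24.6% of 15030 genes were called higher. This step also goes from whole cells to nuclei, from sorting to beads and from one mouse line to another. Thoracic cord was included at E10.5 only. None of this can be told apart from age, and the E10.5 counts of 2 to 11 per library make the size of the step imprecise. The endothelial sum went from 5.34 to 17.3 at E10.5 to 8713 to 17254 at E13.5, and its part in this step was not tested.

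Trank1 then made its largest step. At P4 it was at 1826, 2844 and 1391 normalised counts, with a log2 change from E13.5 of 5.93 (SE 0.41, edgeR adjusted p = 2.8e-09), a level 60.9-fold higher. Pld5 at P4 was at 188, 185 and 208, with a log2 change of 1.51 (SE 0.26, adjusted p = 7.0e-05), 2.86-fold. Both genes were called, where 23.8% of genes were called higher. The libraries of these ages did not overlap for either gene, but how many of all genes also did not overlap was not counted. The change of Pld5 was 0.99 without E13.5 replicate 2, under the 2-fold limit, and 2.2 without E13.5 replicate 1, since the 2 E13.5 libraries were far apart. Markers of other cells also moved at this step: endothelial sums were 8713 to 17254 normalised counts at E13.5 and 4686 to 6290 at P4, oligodendrocyte sums 171 to 172 and 1919 to 2489, and astrocyte sums 1062 to 1292 and 3040.4 to 3719. Their part in these changes was not tested.

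After P4 neither gene was called at any step. Trank1 was at 2734 and 1348 normalised counts at P13, at 1594, 1804 and 2125 at P21, at 3049.6, 2986 and 3258 at P56, and at 2439 and 2704 at 2 years. Pld5 was at 332 and 383 at P13, at 419.5, 516 and 336 at P21, at 364, 374 and 343 at P56, and at 356 and 355 at 2 years. The groups of Trank1 from P4 to P21 overlapped, and those of P56 lay above all other groups. The groups of Pld5 from P13 to 2 years overlapped, and all lay above P4.

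The 6 steps of age were tested in 1 fit of the 18 in vivo libraries. From P4 to P13 Pld5 rose by a log2 change of 0.97 (SE 0.24, edgeR adjusted p = 0.0044), 1.96-fold and so just under the 2-fold limit, while Trank1 changed by 0.11 (SE 0.29, adjusted p = 0.80), where 5.8% of genes were called higher. From P13 to P21 the changes were -0.25 (adjusted p = 0.60) and 0.16 (adjusted p = 0.68), beside 1.5% called higher. From P21 to P56 Trank1 had a log2 change of 0.75 (SE 0.27, adjusted p = 0.63) and Pld5 of -0.24 (adjusted p = 0.93), beside 0.0466% called higher, and from P56 to 2 years they had -0.19 (adjusted p = 0.85) and 0.06 (adjusted p = 0.96), beside 0.499%. The adjusted p of Trank1 from P21 to P56 depended on the fit. With only the libraries compared the log2 change was 0.77 (SE 0.10, edgeR adjusted p = 0.0016). With no filter it was also 0.77 (edgeR adjusted p = 0.0035). Both changes were under the 2-fold limit. The P13 libraries of Trank1 were farther apart from each other than any of its steps after P4 was large.

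**Figure D2:**
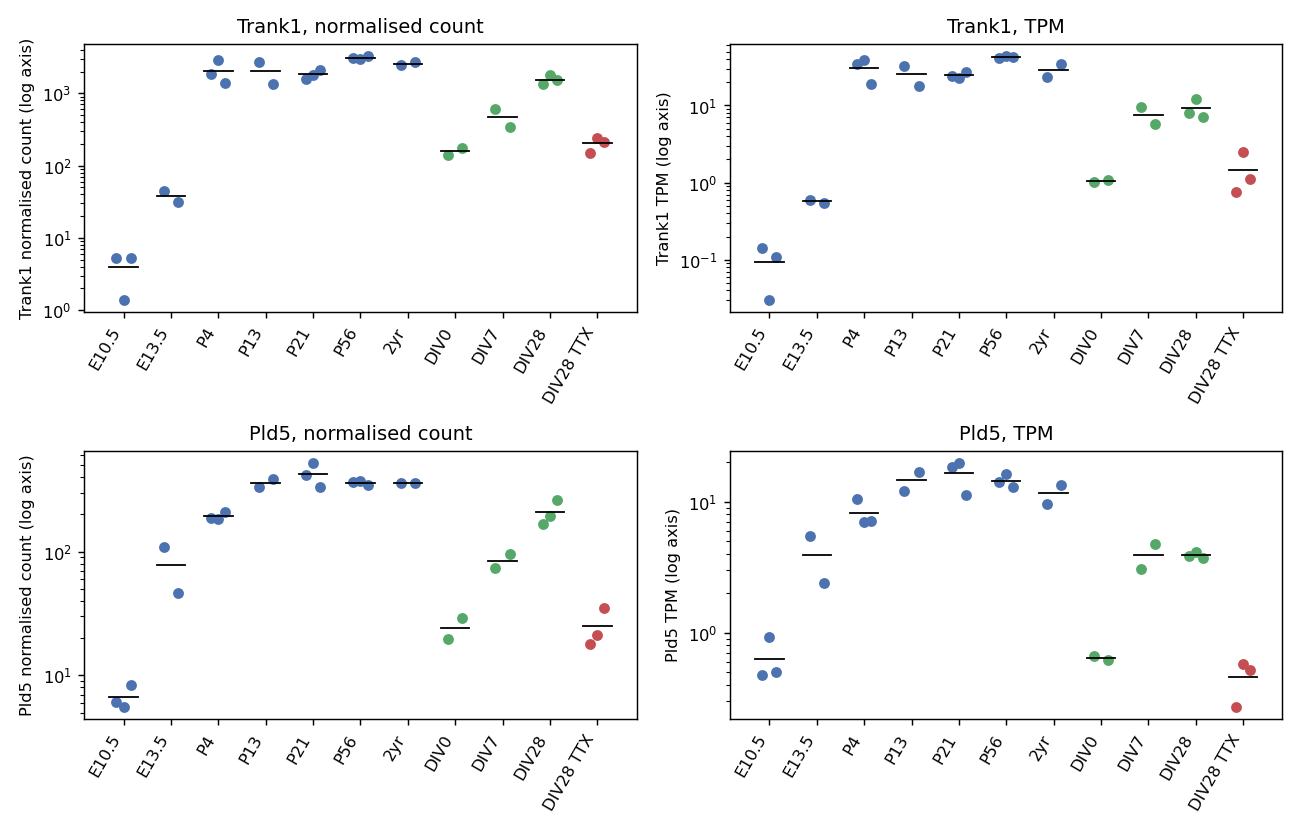
Levels of Trank1 (top) and Pld5 (bottom) in each of the 28 RNA libraries by group, as normalised read counts (left) and TPM (right) on log axes, with points for libraries (blue in vivo, green in vitro, red with TTX) and black lines for group means. In normalised counts both genes are lowest at E10.5 (1.38 to 5.34 and 5.53 to 8.39), and the DIV28 TTX libraries overlap those of DIV0 in 3 of the 4 panels and lie below them for Pld5 in TPM.

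By mean normalised count, E10.5, E13.5, DIV0, DIV28 TTX and DIV7 were the lowest groups for both genes, while the order within and above these groups differed. For Trank1 it ran, from low to high mean, E10.5, E13.5, DIV0, DIV28 TTX, DIV7, DIV28, P21, P4, P13, 2 years and P56. DIV0 and DIV28 TTX overlapped, as did each neighbouring pair from DIV28 to 2 years, while the other neighbours did not. For Pld5 it ran E10.5, DIV0, DIV28 TTX, E13.5, DIV7, P4, DIV28, 2 years, P13, P56 and P21, with overlap between DIV0 and DIV28 TTX, E13.5 and DIV7, P4 and DIV28, and among the 4 highest. E13.5 thus stood below DIV0 for Trank1 and above it for Pld5. P21 had the highest mean of Pld5 but the lowest mean of Trank1 among the ages after birth, in groups that partly overlapped. In TPM the order was another: the lowest mean of Pld5 was with TTX, overlapping E10.5, and its DIV28 mean lay below that of E13.5.

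How DIV28 compared with tissue depended on the age and the scale. In normalised counts, Trank1 at DIV28 overlapped P4, P13 and P21 and lay below P56 and 2 years, and Pld5 overlapped P4 and lay below all later ages. The P21 mean was 1.19-fold that of DIV28 for Trank1, with overlapping libraries, and 2.04-fold for Pld5, with none. The P56 mean was 2.0-fold that of DIV28 for Trank1 and 1.73-fold for Pld5. In TPM the P21 ratios were 2.70 and 4.22, so on that scale the culture was further below that age. Without the library titled DIV0, the P21 ratios were 1.18 and 2.35 in normalised counts and 2.43 and 4.15 in TPM.

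The genes differed in how the step after the first stage compared between tissue and culture. The rise from E13.5 to P4 minus that from DIV0 to DIV7 was 4.13 on the log2 scale for Trank1 (SE 0.50, edgeR adjusted p = 1.2e-06), 17.5-fold, and it was called in 9 of 9 fits that left out 1 library, where 11.3% of 15521 genes were called higher in this difference. For Pld5 it was -0.52 (SE 0.45, adjusted p = 0.36), with a range of 2 standard errors from -1.42 to 0.39, which leaves room for a difference in either direction. The stages are set side by side by their order in the study, not by time, and the starting levels differed: mean Trank1 was 4.18-fold higher at DIV0 than at E13.5 in normalised counts, and mean Pld5 3.20-fold higher at E13.5 than at DIV0. The step in culture also adds the glia, and its part in this difference was not tested.

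**Figure D3:**
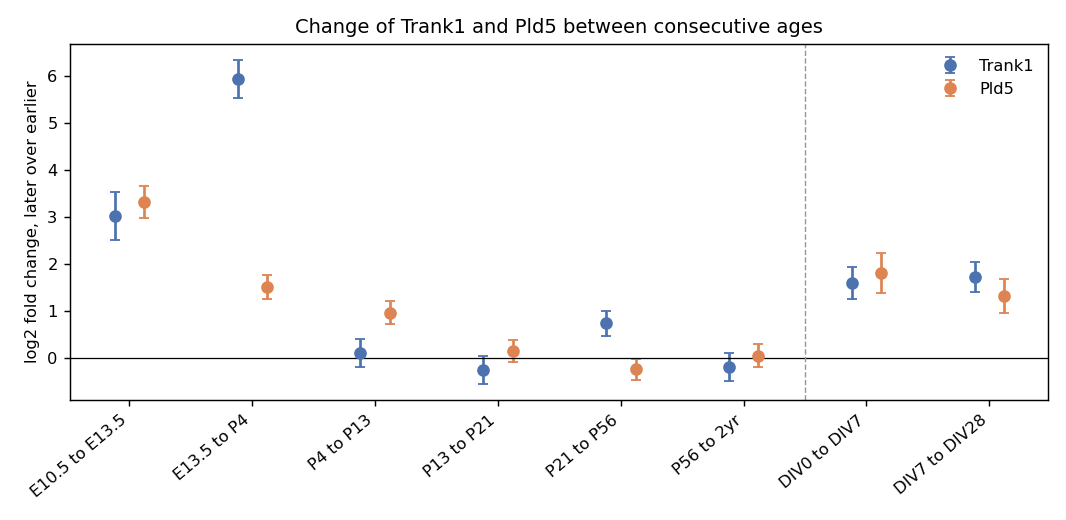
Fitted log2 fold changes of Trank1 (blue) and Pld5 (orange) over the 6 steps of age in vivo (left of the dashed line) and the 2 steps in vitro (right), with bars of 1 standard error. The step of Trank1 from E13.5 to P4 (5.93) stands above that of Pld5 (1.51), while the other steps of both genes are closer.

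Per length, Pld5 was the more abundant in the embryo and Trank1 after birth and in culture. The ratio of Trank1 to Pld5 in TPM was 0.033 to 0.29 over the E10.5 libraries and 0.11 to 0.22 at E13.5. It was 2.68 to 5.52 at P4, 1.07 to 2.68 at P13, 1.18 to 2.42 at P21, 2.71 to 3.28 at P56 and 2.42 to 2.54 at 2 years. Some P13 and P21 libraries thus held the genes at near equal levels. In culture it was 1.52 to 1.73 at DIV0, 1.19 to 3.13 at DIV7, 1.90 to 3.0 at DIV28 and 2.15 to 4.28 with TTX. Within pairs of the same number the ratio was higher with TTX each time, 2.81 against 2.12, 4.28 against 3.0 and 2.15 against 1.90, and in normalised counts too the fold was larger for Pld5 than for Trank1 in all 3 pairs. Since this contrast chose both genes, the difference is a description with no test. The mean length of the Trank1 transcripts, weighted by their estimated shares, was 9209 to 10017 bases at DIV28 and 8465 to 10122 with TTX, and also overlapped. For Pld5 it was 2834 to 3158 at DIV28 and 3279 and 3184 in the 2 TTX libraries that held at least 20 counts, which rest on 39 and 28 counts.

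Across the 10 in vitro libraries the pattern of each gene was among the closest to that of the other. Pearson's r of log2 normalised counts between them was 0.951, the highest of 15329 genes for Pld5 and the second for Trank1, after Trim10 (r = 0.954). The DIV28 and TTX libraries that chose both genes are 6 of these 10, so this closeness follows in part from the choice of the genes. Leaving out the library titled DIV0, r was 0.939 over 9 libraries, and each gene was the second closest to the other. Also among the 5 most alike were Atg16l2, related to the autophagy gene Atg16l1 (r = 0.938 with Trank1 and 0.928 with Pld5), Nupr1, a small nuclear protein of the stress response (r = 0.934 with Trank1), and Ppm1e, a protein phosphatase (r = 0.907 with Pld5). Atg16l2 was at 126 ± 9.23 normalised counts at DIV28 and 61.6 ± 5.07 with TTX, Nupr1 at 116 ± 55.05 and 3.29 ± 2.77, and Ppm1e at 369 ± 55.5 and 153 ± 15.6 (SD, n = 3 each). Their DIV28 means were 128, 127 and 342 without the library titled DIV0. Of these, Nupr1 was at 4.05 ± 1.41 at P56, so that it did not share the high level of both genes in the adult cord. Nor did Trim10, at 0.905 ± 0.784 at P56. Its counts were low in culture too, at 27.3 ± 3.79 at DIV28 and 3.20 ± 3.34 with TTX (SD, n = 3 each). That DIV28 mean is given only with the library titled DIV0.

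Over all 28 libraries the nearest genes were others. For Trank1 they included Zbtb4 (r = 0.965), Cnnm1 (0.958), Nalcn, the sodium leak channel (0.958), and Ttc39b (0.957), and Pld5 was 368th of 16167 genes with r = 0.904. For Pld5 they were Gm38081 (0.958), A530058N18Rik (0.940), Kcnn2, a calcium-activated potassium channel of small conductance (0.932), Gm38069 (0.932) and Ppm1e (0.927), and Trank1 was 50th. Gm38081 lies inside Pld5 on the same strand (chr1:176031079-176032723), so that reads of the one may be counted for the other. Kcnn2 was at 184 ± 33.9 normalised counts at DIV28 and 46.2 ± 2.46 with TTX, and averaged 164 at DIV28 without the library titled DIV0. These libraries share ages and isolation steps, and many genes rose between the same ages, and the rank of Pld5 shows how many genes correlate with Trank1 as closely. Over 27 libraries without the one titled DIV0, 4 of the 5 genes most like Trank1 and 2 of the 5 most like Pld5 were kept.

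Chromatin around both genes was open at DIV28 with and without TTX. Peaks of the 4 DIV28 and DIV28 TTX libraries were merged into regions, and those with a summit inside a gene or within 50 kb of its ends were taken, which gave 30 regions at Trank1 and 40 at Pld5. The number of these regions with a peak was 18 to 24 in the DIV28 libraries and 18 to 23 in the TTX libraries at Trank1, and 25 to 28 and 24 to 29 at Pld5. At DIV0 it was 6 to 7 at Trank1 and 7 to 8 at Pld5, and in tissue after birth 11 to 19 and 10 to 22. The regions were defined in the DIV28 and TTX libraries, which favours those libraries in such counts, and the ranges of the conditions at DIV28 overlapped.

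At Trank1, 14 regions had a peak in all 4 libraries, 2 in both DIV28 and neither TTX library, and 2 in both TTX and neither DIV28 library. At Pld5 these numbers were 16, 2 and 5. Over all 292907 regions, 2.8% were of the DIV28 kind and 3.52% of the TTX kind, and shares near Trank1 (6.67% each) and Pld5 (5.0% and 12.5%) rest on these few regions. The peak lists carry no read numbers, so depth is unknown, and only 2 libraries stand in each group, so no test is given and a missing peak may be one below the limit of detection.

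The start of Trank1 had a peak in all 4 libraries. The region chr9:111311266-111313376, with its summit 74 bases before the start and within the first sequence shown above, had −log10 p of 55.6 and 15.9 at DIV28 and 15.5 and 8.03 with TTX. Since −log10 p grows with depth, its rank among the peaks of each library was also taken: it was within the top 15.8% and 23.6% at DIV28 and the top 41.8% and 37.7% with TTX. Both TTX libraries lay below both DIV28 libraries in these values, by little in −log10 p (15.9 against 15.5). The peak lists differ in length, with 224328 and 152667 intervals at DIV28 and 217773 and 165926 with TTX, and depth is unknown, so no change in accessibility is read from this or from the other ranks given here. In tissue from E13.5 on, all 12 libraries had a peak there, within the top 6.60% to 37.0%.

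At Pld5 both starts also had a peak in all 4 libraries. The far start (chr1:176274460-176275826) had −log10 p of 39.4 and 11.9 at DIV28 and 33.6 and 17.8 with TTX, within the top 22.9% and 33.8% against 21.9% and 14.7%. The inner start (chr1:176213532-176214186) had 7.32 and 3.96 at DIV28 and 10.1 and 8.03 with TTX, the top 70.9% and 78.0% against 54.1% and 37.7%. The −log10 p values of the conditions overlapped at the far start, and at the inner start both TTX values lay above both DIV28 values. In tissue from E13.5 on, all 12 libraries had a peak at the inner start, within the top 7.77% to 25.6% of lists that differ in length from those of the cultures.

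Among regions with a peak in all 4 libraries, −log10 p of both TTX libraries lay below both DIV28 libraries at 2 of 14 regions of Trank1 and 3 of 16 of Pld5, against 6.58% of 102068 such regions in all. Besides the start, the region at Trank1 is in an intron (chr9:111352279-111352951), with 40.1 and 11.6 against 8.60 and 7.99. The largest of those at Pld5 lies between genes (chr1:175953207-175954040), past the 3′ end, with 124 and 24.5 against 14.99 and 6.20, and it had no peak in the 14 in vivo libraries or at DIV0 and DIV7. The opposite order, both TTX libraries above both DIV28 libraries, was seen at 1 of 14 regions of Trank1 and 1 of 16 of Pld5, against 3.73% of such regions in all. Counts in both directions rest on few regions. Regions other than those at the starts were chosen here after their values were seen.

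**Figure D4:**
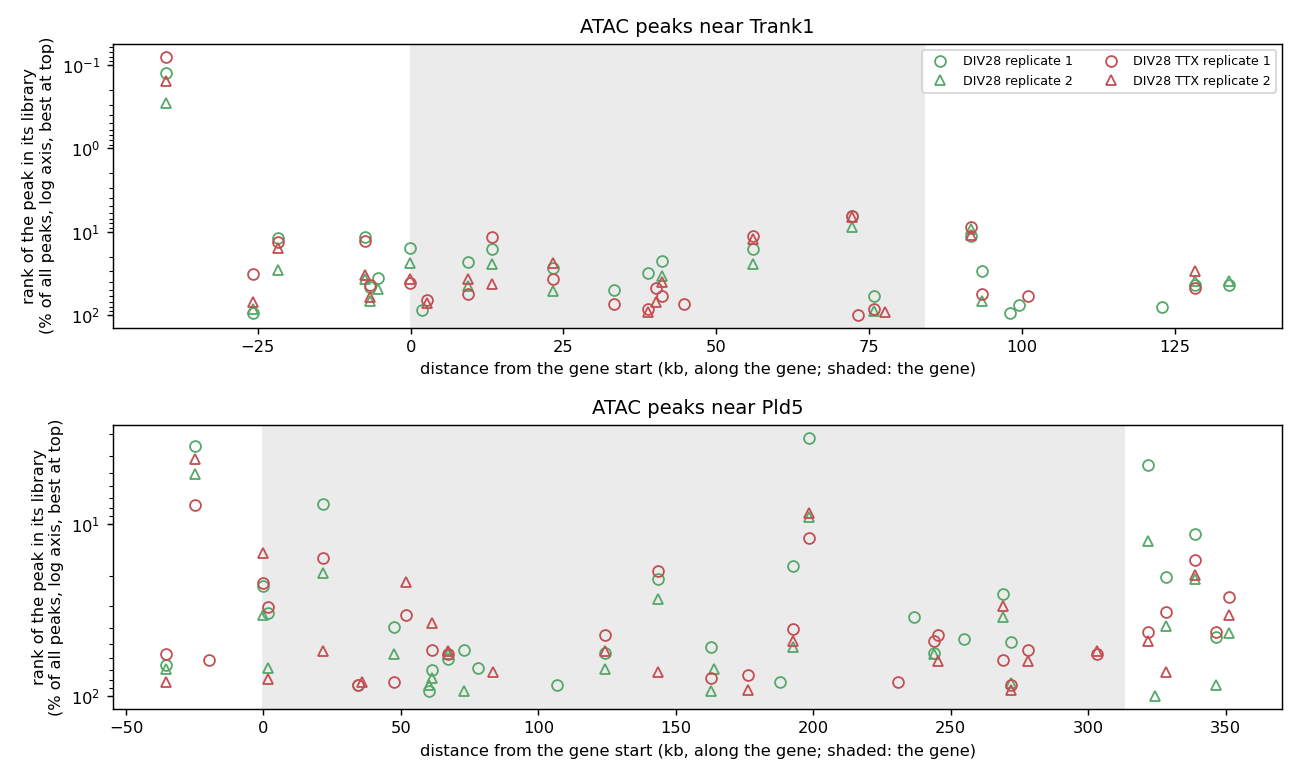
Rank of each ATAC-seq peak among the peaks of its library (percent from the top, log axis, strongest at the top) against the distance of its region from the gene start in kb, near Trank1 and Pld5, in the DIV28 (green) and DIV28 TTX (red) libraries, with the gene shaded. At 0 kb the Trank1 peak is in the top 15.8% and 23.6% at DIV28 and the top 41.8% and 37.7% with TTX, and at the far Pld5 start the peaks are in the top 22.9% and 33.8% at DIV28 and 21.9% and 14.7% with TTX, in lists of unequal length.

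Regions with peaks in only one condition are given by sequence, all 4 of DIV28 and the strongest of each gene with TTX. They are the places where the peak lists of the 2 conditions differed by presence of a peak, and no change in accessibility is read from this. Each sequence is the 300 bases around the summit in GRCm38, on the strand of the gene, 5′ to 3′, and capitals mark matches to the motifs named above.
Trank1, DIV28 only, chr9:111306186-111306485, plus strand: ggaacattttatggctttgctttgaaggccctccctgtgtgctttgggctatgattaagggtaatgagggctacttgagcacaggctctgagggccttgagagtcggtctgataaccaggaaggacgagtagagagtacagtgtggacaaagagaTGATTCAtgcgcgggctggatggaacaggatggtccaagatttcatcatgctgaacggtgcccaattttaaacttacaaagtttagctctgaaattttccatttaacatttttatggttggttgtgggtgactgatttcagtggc
Trank1, DIV28 only, chr9:111445512-111445811, plus strand: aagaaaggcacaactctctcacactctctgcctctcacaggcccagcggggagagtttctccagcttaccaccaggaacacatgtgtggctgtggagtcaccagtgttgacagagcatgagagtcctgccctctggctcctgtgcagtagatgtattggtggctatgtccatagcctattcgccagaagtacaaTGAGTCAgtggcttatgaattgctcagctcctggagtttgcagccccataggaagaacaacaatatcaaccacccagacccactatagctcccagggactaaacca
Pld5, DIV28 only, chr1:176202223-176202522, minus strand: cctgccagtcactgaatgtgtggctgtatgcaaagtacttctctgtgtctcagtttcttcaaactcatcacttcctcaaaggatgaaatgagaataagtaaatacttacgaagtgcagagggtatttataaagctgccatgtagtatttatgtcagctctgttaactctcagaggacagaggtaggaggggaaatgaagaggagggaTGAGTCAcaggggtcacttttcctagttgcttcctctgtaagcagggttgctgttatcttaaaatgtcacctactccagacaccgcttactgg
Pld5, DIV28 only, chr1:176214925-176215224, minus strand: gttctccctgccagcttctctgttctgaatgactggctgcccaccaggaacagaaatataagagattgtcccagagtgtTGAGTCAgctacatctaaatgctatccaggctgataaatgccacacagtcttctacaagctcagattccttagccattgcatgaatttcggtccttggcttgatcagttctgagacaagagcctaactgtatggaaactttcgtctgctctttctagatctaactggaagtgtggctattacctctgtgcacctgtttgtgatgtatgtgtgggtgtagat
Trank1, TTX only, chr9:111351664-111351963, plus strand: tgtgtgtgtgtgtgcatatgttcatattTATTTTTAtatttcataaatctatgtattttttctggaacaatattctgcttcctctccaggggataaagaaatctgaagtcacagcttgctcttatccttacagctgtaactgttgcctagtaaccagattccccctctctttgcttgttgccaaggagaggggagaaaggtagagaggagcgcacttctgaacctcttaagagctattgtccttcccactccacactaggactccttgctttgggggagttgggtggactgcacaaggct
Pld5, TTX only, chr1:176223269-176223568, minus strand: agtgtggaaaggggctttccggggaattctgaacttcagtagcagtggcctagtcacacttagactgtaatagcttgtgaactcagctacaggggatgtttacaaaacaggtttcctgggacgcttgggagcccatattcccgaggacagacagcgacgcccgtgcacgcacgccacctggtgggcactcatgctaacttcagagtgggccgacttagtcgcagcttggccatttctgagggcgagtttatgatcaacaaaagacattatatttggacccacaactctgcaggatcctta

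The first 4 of these had a peak in both DIV28 libraries and in neither TTX library. At Trank1 one lies 5.4 kb before the start, between genes, with −log10 p of 22.9 and 8.02, and had a peak in 4 of 12 in vivo libraries from E13.5 on. The other lies 133.92 kb past the start inside the gene Dclk3, with 17.5 and 9.97, and had a peak in 0 of 12. At Pld5 both are intronic, one with 12.5 and 2.59 and peaks in 2 of 12 tissue libraries, and one just before the inner start with 3.18 and 3.25 and peaks in 0 of 12. The last is close to the limit of 2.0 below which no peak was listed.

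Each of these 4 windows holds 1 match to the AP-1 letters, TGATTCA at bases 156 to 162 of the first and TGAGTCA at bases 195 to 201, 208 to 214 and 80 to 86 of the others. Of the 7 windows with a peak only with TTX, 0 hold AP-1 letters. Over all regions the same letters were in 54.0% of 8187 windows of the DIV28 kind, in 15.6% of 10317 windows of the TTX kind, in 42.4% of windows with a peak in all 4 libraries and in 36.0% of all 292907 windows. Near Trank1 they were in 13 of 30 windows (43.3%) and near Pld5 in 20 of 40 (50%). A match is a description of the letters and says nothing of binding, and the count of 4 of 4 is small beside a share of 54.0%.

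The CRE was in 0 windows near either gene and in 0.699% of all windows. The MEF2 core was in 1 of 30 windows at Trank1 and 4 of 40 at Pld5, beside 3.72% of all windows. The one at Trank1 is in the fifth sequence, as TATTTTTA at bases 29 to 36.

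Of the 7 regions with peaks only with TTX, the strongest is the last sequence shown, in an intron of Pld5, with −log10 p of 20.4 and 13.1, in the top 33.7% and 21.7%. It had a peak in both E10.5 libraries and in 11 of 12 tissue libraries from E13.5 on, and in 0 of the 4 DIV0 and DIV7 libraries. The fifth sequence, in an intron of Trank1, had 12.5 and 4.35 and peaks in 6 of 12. The other 5 had −log10 p from 2.32 to 14.1 and peaks in 1 to 9 of the 12 tissue libraries. The 4 DIV28 regions had peaks in 0 to 4 of the same 12 libraries and the 7 TTX regions in 1 to 11, ranges that overlap.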

How the data were processed

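RNA-seq (28 libraries) and ATAC-seq (22 libraries) were grouped by age or culture condition from their labels, and 1 library titled DIV0 replicate 3 was taken as DIV28, since the study counts 2 DIV0 and 3 DIV28 replicates. The members and gene lists were chosen with earlier results of these data known. Per the submitters' notes the authors used Trim Galore (cutadapt 0.6.2), STAR 2.5.2b and RSEM 1.3.0 on mm10 for RNA, and BWA 0.7.1.7, SAMtools 1.7.2 and MACS2 2.2.7.1 for ATAC. The deposited RNA values are RSEM expected counts per gene, with the authors' TPM and mean transcript length. The authors' deposited peak lists, called per library at a p limit of 0.01, give the fold enrichment (a ratio to local background), −log10 p and −log10 q per peak but no read numbers, so depth is unknown. The ribosome-depleted RNA kit marks strand.

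Expected counts were rounded and tested with the quasi-likelihood test of edgeR 4.0.16 (R 4.3.3) with TMM factors on genes that reached 5 CPM in all replicates of some group, over 18 in vivo, 10 in vitro or 25 untreated libraries. A call was an unadjusted p under 0.001 and at least 2-fold, limits that the paper uses, and adjusted p-values are Benjamini-Hochberg over all genes tested. The test was checked on simulated counts. Same-numbered DIV28 and TTX libraries deviated together (r = 0.506, 0.426 and 0.598), which pairs them, and libraries of other groups did not. The blocked fit, whose blocks also held the DIV0 and DIV7 libraries of the same number, left both members lower with TTX. Alternatives were DESeq2 1.42.0, median-of-ratios factors, no filter, a replicate block, only the libraries compared and leaving out each library. ATAC regions merged peaks overlapping by at least 1 bp. Genes most alike were the 5 with the highest Pearson's r of log2(normalised count + 1), among genes with a mean of at least 10. Tables were handled with Python 3.11.15, pandas 2.3.3, numpy 2.4.6 and scipy 1.17.1. Of the gene IDs, 54487 of 55385 matched GENCODE M21, used for positions. Promoters are from RefSeq, and both genes matched. A few genes of these lists are not reported here by name.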

Additional observations from a re-analysis of the deposited data

Results flagged for a closer look

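For Trank1 the rise in tissue from E13.5 to P4 exceeded the rise in culture from DIV0 to DIV7 by 4.13 on the log2 scale, in a test of that difference between the systems (edgeR interaction term, adjusted p = 1.2e-06). That fit also held DIV28 libraries, and with only the libraries compared the difference was 4.17 (edgeR adjusted p = 8.2e-05). The E13.5 and DIV0 libraries number 2 each, and the difference ran from 3.79 to 4.50 when 1 library was left out. The culture step from DIV0 to DIV7 also adds the glia, whose part was not tested. No group of 4 or more RNA libraries was available in which a single outlying library could be looked for.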

How the results depend on the processing

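Pld5 from E13.5 to P4 was no longer called with only the libraries compared (1.44). Pld5 from DIV0 to DIV7 passed the call with no filter (1.84), with the replicate block (1.81), with DESeq2 (1.79) and under an adjusted p limit (1.81). These libraries share only a number (correlations within ±0.15), so the block is not a pairing there. Pld5 from P56 to 2 years changed sign with median-of-ratios factors (-0.0019), DESeq2 (-0.0019) and only the libraries compared (-0.0058), all within 1 SE of 0. With 1 library left out, log2 changes ranged from 0.99 to 2.2 (Pld5, E13.5 to P4), -0.52 to 0.54 (Trank1, P4 to P13), -0.68 to 0.38 (Trank1, P13 to P21), -0.0025 to 0.30 (Pld5, P13 to P21), -0.0019 to 0.11 (Pld5, P56 to 2 years), 1.11 to 1.90 (Trank1, DIV0 to DIV7), 1.405 to 2.196 (Trank1, DIV7 to DIV28), and -1.03 to 0.22 (Pld5, tissue minus culture). The TTX changes ranged from -3.12 to -2.76 for Trank1 and from -3.40 to -2.90 for Pld5. In TPM the log2 ratio of DIV28 to P21 was -1.43 for Trank1 and -2.08 for Pld5, and of DIV28 to DIV7 0.27 and -0.0068. At least −log10 p of 5 left 0 TTX-only regions at Trank1 and 1 DIV28-only and 2 TTX-only at Pld5, a 10 kb window left 1 DIV28-only at Trank1, and 100 kb gave 49 regions there. Over the 18 in vivo libraries, 0 of the 5 genes most like Trank1 and 0 of those most like Pld5 were shared with the 28-library lists. Over all genes, TTX calls numbered 88, and 365 with no filter, 172 with the paired block, 187 with DESeq2 and 65 with only the libraries compared, and P21 to P56 calls 26, and 115 with no filter. The causes were not tested. The low counts of Pld5 with TTX and of both genes at E10.5 limit precision most.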
